A study of Homo sapiens with 2 samples.

Results

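Splicing kinases of the CLK and SRPK families phosphorylate the proteins that steer splicing, and 6 of their genes were examined: CLK1, CLK2, CLK3, CLK4, SRPK1 and SRPK2. They were found by matching each symbol to its Ensembl gene identifier in the gene tables of both libraries, and all 6 were present among 57736 listed genes. The libraries are 2 replicates of wild type HEK293T, an established line derived from embryonic kidney and expressing a viral large T antigen. By their labels both received a heat shock of 20 min at 43 °C and then 6 h at 37 °C, after which the cells of each replicate were lysed on their own and poly(A)+ RNA was sequenced with 50 bp reads. The study's text describes a longer heat shock at this temperature and gives no separate duration for the one before the 6 h recovery. Untreated cells are not analysed here, so the values below describe levels after heat shock and recovery, and no value measures what heat shock changed. Nothing in the sources used here says that the replicates came from separate cultures, so the spread between them may be technical.

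SR proteins bind exons and recruit the spliceosome, and their tails of arginine-serine repeats (RS domains) are phosphorylated by these kinases. SRPKs act mainly in the cytoplasm, where phosphorylation lets SR proteins enter the nucleus, and CLKs act in the nucleus, where further phosphorylation releases SR proteins from storage sites called speckles. Heat shock is known to lower the phosphorylation of some SR proteins, and CLK1 pre-mRNA with unspliced introns is known as a stored nuclear form that can be spliced under stress.

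The libraries held 22529828 and 26890199 estimated read counts (replicates 1 and 2). A count of 0 allows at most 3 counts, which is 0.133 and 0.112 CPM (counts scaled to library depth but not to gene length). The replicates differed in a way that followed base composition. In the class of genes poorest in G and C (35.9% GC) replicate 2 exceeded replicate 1 by a median log2 ratio of 0.94. In the richest class (67.5% GC) the median log2 ratio was -0.28. Among 6 listed kidney epithelium markers, 5 were matched and 4 reached 1 TPM in both libraries (TPM, transcript abundance scaled for gene length and depth), with mean TPM from 0.785 for EPCAM to 52.6 for KRT18. Of the haematopoietic markers reported here, PTPRC and CD3E were at 0 in both libraries and HBB was at 0.06 TPM. Both hepatocyte markers had a mean below 0.5 TPM (APOA1 had 0.37 and 0.55 TPM), and of 3 fibroblast markers COL1A1 reached a mean of 22.5 TPM.

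CLK1 and CLK4 are the closest pair among these genes, and their sequences are shown first because they set how well reads could be assigned and because the part around exon 4 returns in the gene lengths below. Skipping of exon 4 is known to give transcripts for a truncated kinase. In the reference, exon 4 had 91 bases in both genes (GRCh37, CLK1 chr2:201724848-201724938 and CLK4 chr5:178044345-178044435, both on the minus strand). The exons differed at 6 bases, which are in capitals.
CLK1 exon 4: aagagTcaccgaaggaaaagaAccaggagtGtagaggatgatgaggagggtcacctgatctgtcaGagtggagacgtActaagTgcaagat
CLK4 exon 4: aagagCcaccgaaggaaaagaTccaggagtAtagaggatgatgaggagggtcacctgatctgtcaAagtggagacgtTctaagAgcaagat

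The introns on both sides of exon 4 are kept in annotated retained-intron transcripts of CLK1, CLK3 and CLK4. In CLK1 they span 1022 bases before exon 4 (chr2:201724939-201725960) and 378 bases after it (chr2:201724470-201724847). In CLK4 they span 1121 bases (chr5:178044436-178045556) and 395 bases (chr5:178043950-178044344), and in CLK3, on the plus strand, 1894 bases (chr15:74912567-74914460) and 277 bases (chr15:74914558-74914834). The splice sites at exon 4 are given with exon bases in lower case and intron bases in capitals.
CLK1 acceptor before exon 4: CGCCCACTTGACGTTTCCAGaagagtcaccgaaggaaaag
CLK4 acceptor before exon 4: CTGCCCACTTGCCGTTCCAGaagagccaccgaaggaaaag
CLK3 acceptor before exon 4: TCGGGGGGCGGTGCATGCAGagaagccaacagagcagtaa
CLK1 donor after exon 4: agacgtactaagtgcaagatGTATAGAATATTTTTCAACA
CLK4 donor after exon 4: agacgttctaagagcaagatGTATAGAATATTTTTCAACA
CLK3 donor after exon 4: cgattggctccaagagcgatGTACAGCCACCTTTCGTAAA
All of these introns begin with GT and end with AG. The first 20 intron bases after exon 4 were the same in CLK1 and CLK4 at all 20 positions, and the last 20 bases of exon 4 at 18 of 20.

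The longest run of identical bases between any pair of the 6 genes, over all their annotated transcripts, was 49 bases long, 1 base below the read length. It lay in CLK1 (chr2:201725070-201725118) and CLK4 (chr5:178044566-178044614), inside the intron before exon 4, 131 and 130 bases upstream of that exon. It is shown as the one stretch where reads of the pair come closest.
CLK1 and CLK4 shared stretch: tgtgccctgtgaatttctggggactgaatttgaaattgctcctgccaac
Among the other 14 pairs the longest identical run was 12 to 25 bases, and no 50-base sequence was shared between members. Reads were trimmed before alignment, so some may be shorter and could fall within a shared stretch, which this comparison does not cover. Each member shared some 50-base sequences with genes outside the family. The share was 0.204% of 5399 sequences for CLK1, 1.98% of 8396 for CLK4, 3.28% of 3938 for CLK2, 5.41% of 8059 for SRPK2 and 5.92% of 20210 for CLK3. For SRPK1 it was 26.2% of 7017, all shared with LHFPL5, a gene on the opposite strand that overlaps the end of SRPK1 and had 1 and 0 counts. The estimation program's own posterior SD of each count was 0.56 to 1.38 reads, so little of any member's count was ambiguous to it.

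All 6 genes were detected, with at least 1 TPM in both libraries. Levels spanned close to an order of magnitude, and SRPK1, CLK3 and CLK2 stood at the top while CLK1 and CLK4 stood at the bottom. The median of 12367 detected protein-coding genes was 18.57 TPM, and CLK4 alone had a mean below it.

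CLK1 (ENSG00000013441, chr2:201717732-201729414), a dual-specificity kinase of SR proteins in nuclear speckles, had 18.39 TPM in replicate 1 and 30.20 TPM in replicate 2. Its mean was 24.3 ± 8.35 TPM (SD, n = 2), the 58.0th percentile of the detected coding genes. The 95% credibility bounds given with the values, 17.7 to 21.7 and 28.7 to 33.4 TPM, did not overlap, and replicate 2 was the higher library.

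CLK2 (ENSG00000176444, chr1:155232659-155248282), a close relative with the same substrates, had 90.24 and 93.98 TPM. The mean was 92.1 ± 2.64 TPM (SD, n = 2), the 88.1st percentile. The bounds of 82.7 to 91.8 and 86.8 to 95.7 TPM overlapped.

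CLK3 (ENSG00000179335, chr15:74890841-74937755) had 108.46 and 107.20 TPM. The mean was 107.83 ± 0.891 TPM (SD, n = 2), the 90.03rd percentile, with the smallest coefficient of variation of the 6 genes (0.826%). The bounds of 100.9 to 116.0 and 100.5 to 113.6 TPM overlapped almost fully.

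CLK4 (ENSG00000113240, chr5:178029665-178057616) had 8.50 and 16.40 TPM. The mean was 12.45 ± 5.59 TPM (SD, n = 2), the 38.7th percentile, with the largest coefficient of variation of the 6 (44.9%). Replicate 2 was the higher library, and the bounds of 7.50 to 10.4 and 14.7 to 18.4 TPM did not overlap.

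SRPK1 (ENSG00000096063, chr6:35800743-35889119), the main cytoplasmic SR protein kinase, had 102.31 and 135.43 TPM. The mean was 118.87 ± 23.4 TPM (SD, n = 2), the 91.1st percentile. Replicate 2 was again higher, without overlap of the bounds (94.5 to 109 and 126 to 141 TPM).

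SRPK2 (ENSG00000135250, chr7:104751151-105039755), its paralogue, had 50.80 and 64.40 TPM. The mean was 57.6 ± 9.62 TPM (SD, n = 2), the 80.0th percentile. The bounds of 47.3 to 55.8 and 60.2 to 68.9 TPM did not overlap either.

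**Figure D1:**
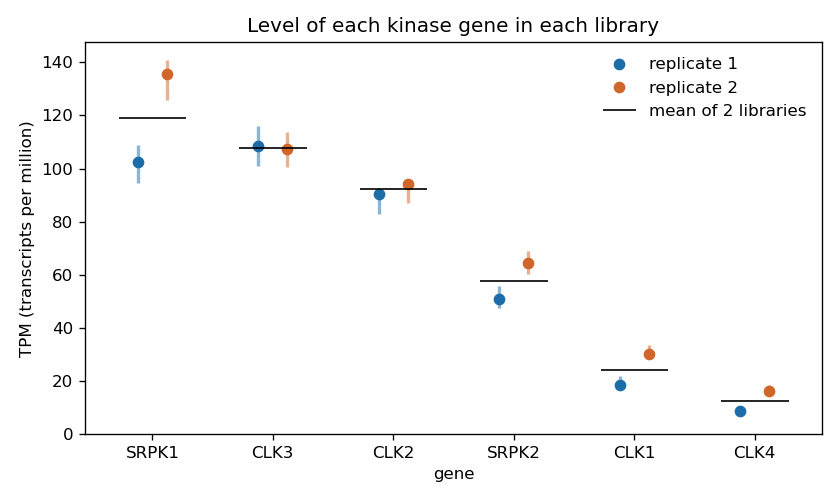
TPM of each kinase gene (vertical axis) in replicate 1 and replicate 2 (points), with the 95% credibility bounds deposited for each library (vertical bars) and the mean of both (black lines), ordered by mean. SRPK1 and CLK3 lead with 118.87 and 107.83 TPM, the libraries of CLK3 and CLK2 lie close together, and replicate 2 lies above replicate 1 for SRPK1, SRPK2, CLK1 and CLK4.

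In the order of mean TPM, SRPK1 was followed by CLK3, CLK2, SRPK2, CLK1 and CLK4. Neighbours were taken to differ where the gap between their means exceeded the larger of their SDs and the order was the same in both libraries. SRPK1 and CLK3 did not differ by this rule, with a gap of 11.04 TPM against an SD of 23.4 TPM and with CLK3 the higher in replicate 1. The other 4 pairs of neighbours did. Of all 15 pairs of genes, 14 had the same order in both libraries.

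Within the pairs of close paralogues, CLK1 exceeded CLK4 by 2.16-fold in replicate 1 and 1.84-fold in replicate 2 on the TPM scale. SRPK1 exceeded SRPK2 by 2.01- and 2.10-fold, a ratio that moved less than either gene did. CLK3 exceeded CLK4 by 12.8- and 6.54-fold, the widest gap within the CLK family and one that depended strongly on the library.

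The 4 CLK genes together gave 226 and 248 TPM, and both SRPK genes together gave 153 and 200 TPM. The CLK sum was therefore 1.47 times the SRPK sum in replicate 1 and 1.24 times in replicate 2 (1.36 ± 0.165, SD, n = 2). Of the summed TPM of the 6 genes, SRPK1 made up 28.6 ± 2.29%, CLK3 26.3 ± 3.32% and CLK2 22.4 ± 2.00% (means ± SD, n = 2). SRPK2 made up 13.9 ± 0.688%, CLK1 5.80 ± 1.34% and CLK4 2.95 ± 1.00%. On the CPM scale the CLK and SRPK sums were equal within their spread (ratio 1.00 ± 0.0851).

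The estimation program (RSEM) gives each gene a length that weights its listed transcripts by their estimated abundance. The deposited length thus reflects which transcripts of a gene were thought to be present. For CLK1 it was 2545.52 bases in replicate 1 and 2488.02 in replicate 2. In all, 14 CLK1 transcripts are listed: 3 coding, 2 marked for nonsense-mediated decay, 8 with retained introns and 1 without a defined coding region. Only 2 of the 14 are longer than the deposited length in the annotation, both retained-intron transcripts. ENST00000473565 has 3208 bases and keeps the introns on both sides of exon 4, and ENST00000461981 has 3173 bases and keeps the introns after exons 4 and 7. The longest of the remaining transcripts has 2026 bases, which is 520 and 462 bases below the deposited lengths.

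If the annotation's lengths were those the authors used, a mean length this large would need at least 43.95% of CLK1 transcripts in replicate 1 and 39.1% in replicate 2 to be assigned to these long retained-intron forms. The lengths are not all the same, however, since the annotation release differed. Among 2648 coding genes with a single listed transcript, 31.95% had the annotated length within 1 base. A deposited length that exceeded the annotated one by as much as the CLK1 excess was found in 1.66% and 1.93% of them. Transcript-level estimates and the reads themselves are not analysed here.

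CLK4, which has the same arrangement around exon 4, showed no such excess. Its deposited length was 1986.60 and 1943.77 bases, below the 2504 bases of the canonical coding transcript, and 5 of its 13 listed transcripts were longer than this in replicate 1 and 6 in replicate 2. A CLK4 transcript of another class has 2780 bases, so the CLK4 lengths set no minimum share of its long retained-intron forms. They do not show that such forms were fewer than in CLK1. CLK2 had 1875.04 and 1811.49 bases, 87.0% and 84.1% of its canonical 2154 bases.

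The other members had deposited lengths far below their canonical transcript. For CLK3 they were 1057.65 and 1032.77 bases, 57.0% and 55.7% of the canonical 1854 bases, with 29 transcripts listed. For SRPK1 they were 2367.51 and 2191.20 bases, 54.5% and 50.4% of 4348 bases. For SRPK2 they were 1621.83 and 1746.29 bases, 44.1% and 47.5% of 3679 bases. The SRPK2 values fall in a gap, since 7 of its 15 transcripts have at most 954 bases and the other 8 at least 2560. With the annotation's lengths, at least 44.2% and 38.3% of SRPK2 transcripts would be assigned to the short ones, under the same reservation on annotation releases.

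**Figure D2:**
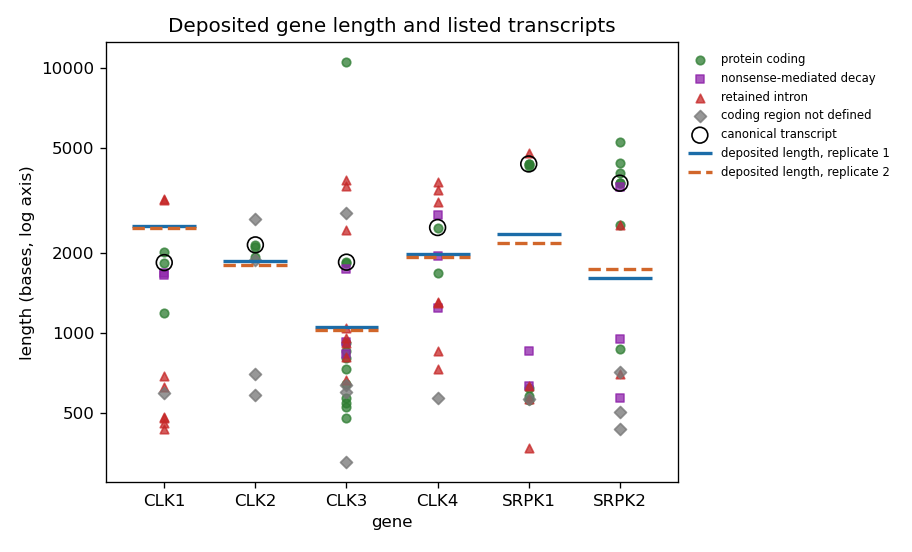
Length in bases on a log axis of every listed transcript found in the annotation (symbols by annotated class, canonical transcripts circled) and the deposited abundance-weighted gene length in replicate 1 (solid line) and replicate 2 (dashed line) for each kinase gene. For CLK1 both lines lie above all transcripts except 2 retained-intron ones, and for SRPK2 they lie in the gap between 954 and 2560 bases.

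Between the libraries, the deposited length changed by -7.4% for SRPK1 and by 7.7% for SRPK2, and by -2.2% to -3.4% for the 4 CLK genes. The median absolute change among the 13840 genes that had 100 or more counts in sum was 2.97%, and the SRPK changes stood at the 76.5th and 75.3rd percentiles of it. The TPM ratios and the scaled count ratios were not the same. The log2 TPM ratio of SRPK1 was 0.40 where its scaled count ratio was 0.20, and that of SRPK2 was 0.34 against 0.36.

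Levels depended on the length used. With the canonical transcript in place of the deposited length (an alternative chosen after the data had been seen), CLK2 came first with 78.5 ± 0.289 TPM, followed by SRPK1 with 61.3 ± 8.71 and CLK3 with 59.5 ± 1.54 TPM (SD, n = 2). CLK1 followed with 33.2 ± 10.9 TPM, SRPK2 with 26.1 ± 5.73 TPM and CLK4 with 9.68 ± 4.21 TPM. Only the lengths of these 6 genes were exchanged, and the scaling of each library was kept. The values therefore compare the members with each other and are not TPM recomputed over all genes. Here SRPK1 and CLK3 did not differ beyond their spread, nor did CLK1 and SRPK2. CLK4 kept its place as the lowest, whereas CLK1 moved above SRPK2 and the CLK sum became 2.09 times the SRPK sum.

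**Figure D3:**
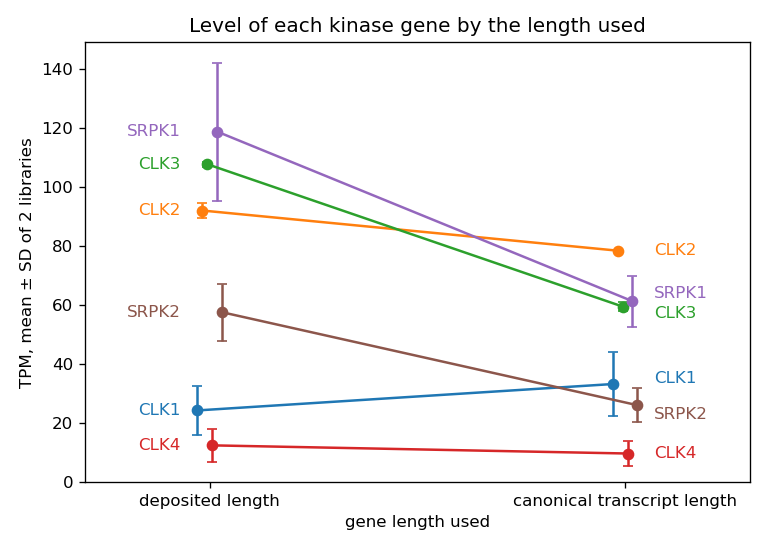
TPM of each kinase gene (mean of 2 libraries, bars are SD) with the deposited length on the left and the canonical transcript length on the right. SRPK1, CLK3 and SRPK2 drop from 118.87, 107.83 and 57.6 TPM to 61.3, 59.5 and 26.1 TPM, CLK1 goes from 24.3 to 33.2 TPM, and CLK4 is lowest on both sides.

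The question for replicate agreement was which of these genes differed between the libraries by more than counting noise. Each was tested with an exact two-sided binomial test on the rounded expected counts, scaled by edgeR's TMM factors and adjusted by the Benjamini-Hochberg method over 19714 genes. The test compares these 2 libraries and not conditions. All 6 members passed at an adjusted p of 0.05, against 42.2% of all genes tested. Of them, 4 were higher in replicate 2 (22.1% of all genes) and 2 were lower (20.1% of all genes). Each member has far more counts than the minimum of the test, and well-counted genes pass more often. These shares are therefore low for comparison, and the members are not shown to be unusually variable.

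CLK1 had 837 and 1530 expected counts, a log2 ratio of replicate 2 over replicate 1 of 0.59 (adjusted p = 8.0e-21, exact binomial test). CLK4 had 300 and 645 counts and a log2 ratio of 0.82 (adjusted p = 5.7e-16, exact binomial test). These were the largest differences of the 6, at the 88.6th and 93.7th percentiles of the ratios of genes that had 100 or more counts in sum.

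SRPK1 had 4328 and 6025 counts and a log2 ratio of 0.20 (adjusted p = 7.4e-11, exact binomial test). SRPK2 had 1458 and 2270 counts and a log2 ratio of 0.36 (adjusted p = 1.1e-12, exact binomial test). Both were thus higher in replicate 2, by less than CLK1 and CLK4.

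CLK2 had 3007 and 3440 counts and a log2 ratio of -0.088 (adjusted p = 0.038, exact binomial test). CLK3 had 1997 and 2191 counts and a log2 ratio of -0.15 (adjusted p = 0.0030, exact binomial test). On the TPM scale CLK2 had the opposite sign, with a log2 ratio of 0.059. Its call was lost when library totals set the scale (adjusted p = 0.18, exact binomial test) and with posterior mean counts (adjusted p = 0.091, exact binomial test). The call for CLK3 was lost with the length trend removed (log2 ratio -0.089, adjusted p = 0.10, exact binomial test).

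The ratios fell with rising GC content of the genes, apart from CLK2 and CLK3, which had nearly equal GC content. CLK4 and CLK1 had 37.8% and 38.2% GC, SRPK2 and SRPK1 42.5% and 43.1%, and CLK3 and CLK2 54.1% and 54.2%. For each gene the median log2 ratio of genes of like GC content was then subtracted. That median was first centred on the median of all genes that had 100 or more counts in sum. The ratio became -0.099 for CLK1, 0.047 for CLK2, -0.016 for CLK3, 0.097 for CLK4, -0.0026 for SRPK1 and 0.10 for SRPK2. The sign thereby turned for CLK1, CLK2 and SRPK1. The values of SRPK1 and CLK3 are so small that their sign depends on this centring. With this trend removed 0 of 6 members passed the exact binomial test (adjusted p from 0.11 for SRPK2 to 0.99 for SRPK1, 1 member at an unadjusted p under 0.05), against 27.2% of all genes, 12.4% higher and 14.9% lower in replicate 2. The exact test of edgeR, with a biological coefficient of variation assumed at 0.1, called 1 member, CLK4 (adjusted p = 0.0074), against 7.69% of all genes, with 2 members at an unadjusted p under 0.05. With the common dispersion estimated from the libraries it called 0 members, also before adjustment, against 0.801% of all genes. That dispersion was set by the differences between these same 2 libraries. The test could therefore call few genes, and the lack of calls does not show that the members agree between libraries.

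**Figure D4:**
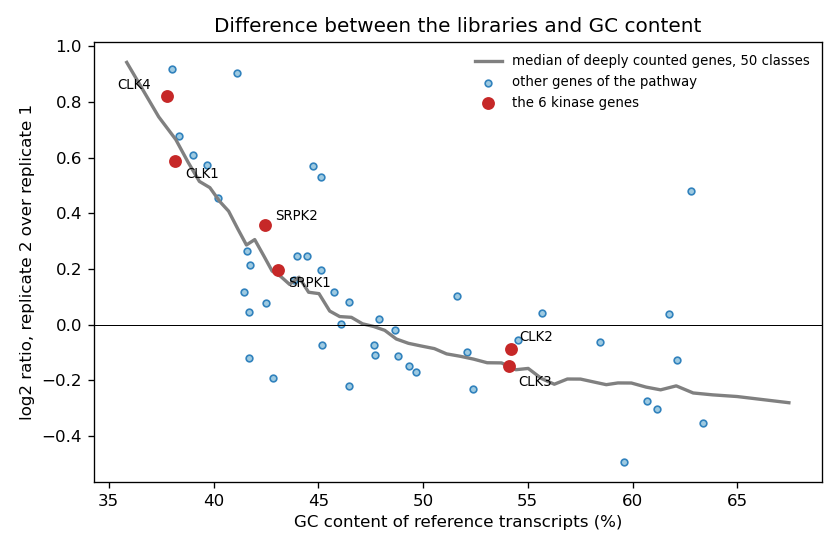
Log2 ratio of scaled counts, replicate 2 over replicate 1 (vertical axis), against the GC content of the reference transcripts in percent (horizontal axis), for the 6 kinase genes (red), the other genes of their pathway (blue) and the median of 50 classes of genes that had 100 or more counts in sum (grey line). The kinase genes lie near the line, from CLK4 at 37.8% GC and 0.82 to CLK2 at 54.2% GC and -0.088.

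The genes around the kinases in their pathway were described by role, with 45 listed and 44 matched (SRSF8 was not matched). Of these 44, 43 were detected, and 33 differed between the libraries, against 42.2% of all genes. Of the 33, 19 were higher and 14 lower in replicate 2, against 22.1% and 20.1% of all genes. With the GC trend removed 25 differed (27.2% of all genes), 11 higher and 14 lower (12.4% and 14.9% of all genes). No pathway gene that passed reached an absolute log2 ratio of 1. Most of these genes have far more counts than the minimum of the test, and well-counted genes pass more often. The shares of all genes given here and below are therefore low for comparison, and no group is shown to be unusually variable.

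The substrates, 18 matched SR and SR-like proteins and other RS domain proteins, were all detected, at 13.41 to 612.69 TPM with a median of 257 TPM. This median lies above the level of every kinase gene. SRRM2, a large RS domain protein of the spliceosome, had 569.41 and 655.98 TPM, and SNRNP70, a protein of the U1 particle, had 449.54 and 440.68 TPM. In all, 15 of 18 passed the test (42.2% of all genes), 10 higher and 5 lower in replicate 2, and with the GC trend removed 12 passed (27.2% of all genes), 5 higher and 7 lower.

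SRSF11 and SRSF10 were picked out after their values were seen. SRSF11, an SR-related protein, had 240.69 and 503.23 TPM and a log2 ratio of 0.90, which stayed at 0.53 with the GC trend removed (adjusted p = 8.1e-106, exact binomial test). SRSF10, whose dephosphorylation in heat shock is known to repress splicing, had 179.41 and 286.52 TPM and a log2 ratio of 0.61. Its ratio was 0.036 with the GC trend removed (adjusted p = 0.49, exact binomial test).

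Among 3 import and binding partners, SAFB had 127.53 and 132.25 TPM and its paralogue SAFB2 49.36 and 57.67 TPM. Both are nuclear scaffold proteins that bind SRPKs, and SAFB2 was the 1 of 3 that passed the test, lower in replicate 2 by scaled counts (log2 ratio -0.099) although its TPM was higher there. With the GC trend removed SAFB passed in its place, higher in replicate 2 (log2 ratio 0.087). Over all genes 42.2% passed and 20.1% were lower in replicate 2. With the trend removed 27.2% of all genes passed and 12.4% were higher, so 1 of 3 is no result about this group. TNPO3, the importin of phosphorylated SR proteins, was at 45.9 ± 2.595 TPM (SD, n = 2), and in both libraries it was below SRPK1, CLK3, CLK2 and SRPK2 and above CLK1 and CLK4.

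The 5 chaperones that hold SRPKs in the cytoplasm had a median of 328 TPM and all 5 passed the test, 1 higher and 4 lower, with and without the GC trend. Over all genes 42.2% passed and 20.1% were lower, or 27.2% and 14.9% with the trend removed. HSPA8, the constitutive Hsp70, had 1219.7 and 1137.1 TPM. HSP90AB1, the constitutive Hsp90, had 628.88 and 623.23 TPM. HSP90AA1, its heat-inducible relative, had 247.48 and 408.27 TPM and was the 1 higher in replicate 2 (log2 ratio 0.57, or 0.44 with the GC trend removed).

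Protein phosphatase 1, which removes phosphate from SR proteins, was described by 5 subunits and regulators with a median of 169 TPM. PPP1R10, a nuclear regulator, had 204.45 and 188.60 TPM, and the catalytic subunit PPP1CC had 178.09 and 195.30 TPM. Of the 5, 4 passed (42.2% of all genes), 2 in each direction, and 3 with the GC trend removed (27.2% of all genes), all lower in replicate 2 (14.9% of all genes).

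The other kinases of RS domains and of the related DYRK and HIPK families, with AKT, had a median of 27.6 TPM, and 12 of 13 were detected. AKT2, one of the kinases that act upstream of SRPKs, had 187.11 and 186.68 TPM. PRPF4B, a kinase of the spliceosome, had 68.09 and 131.15 TPM, and its log2 ratio of 0.92 became 0.22 with the GC trend removed. SRPK3, the muscle member of the SRPK family, had 1.08 and 1.35 TPM from 32 and 39.89 counts, far below SRPK1 and SRPK2. In this group 8 of 13 passed (42.2% of all genes), 6 higher and 2 lower. With the GC trend removed 4 of 13 passed, near the 27.2% of all genes, and all were higher in replicate 2 (12.4% of all genes).

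**Figure D5:**
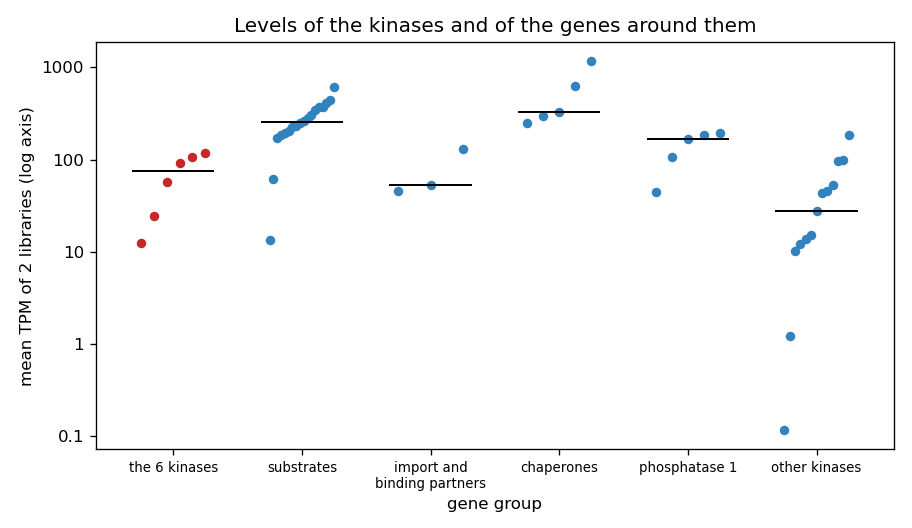
Mean TPM of 2 libraries on a log axis for the 6 kinase genes (red) and for the other pathway genes by role (blue), 1 point a gene, with black lines at the median of each group. The substrates, chaperones and phosphatase 1 genes have medians of 257, 328 and 169 TPM, above the kinases, and the other kinases have a median of 27.6 TPM.

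Pseudogenes and neighbours were checked because reads could be shared with them. The processed pseudogenes CLK2P1, CLK3P2 and SRPK2P had at most 1.06 counts in either library, although CLK2P1 shares an identical run of 124 bases with CLK2 and SRPK2P one of 90 bases with SRPK2. The sources used here do not give whether strand was used in counting. Where exons of genes on opposite strands overlap, their reads may therefore not have been told apart.

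EDC3, a gene of mRNA decapping, lies opposite CLK3 over 14857 bases and was at 71.7 ± 7.12 TPM (SD, n = 2), and 3.0% of the 50-base sequences of CLK3 occur in it. HCN3, an ion channel gene, overlaps CLK2 over 1029 bases and had 9.26 and 12.98 TPM. SCAMP3, on the same strand as CLK2 and within 1 kb of it, was at 90.8 ± 6.84 TPM (SD, n = 2). KMT2E, which overlaps the end of SRPK2 by 4316 bases, had 18.21 and 29.76 TPM. Apart from LHFPL5 above, the other overlapping genes found in the tables are short RNAs, pseudogenes or long noncoding RNAs with at most 4.14 counts.

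KMT2E was also the coding gene nearest in level to CLK1, by distance on log2(TPM + 1) over both libraries (0.025). By the same measure the nearest to CLK2 was WDR45B, to CLK3 TIMM44, to CLK4 CAMK4, to SRPK1 RPF1 and to SRPK2 GGPS1, at distances of 0.015 to 0.028. With 2 libraries such nearness describes similar levels only.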

How the data were processed

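Both libraries are heat-shocked HEK293T cells, grouped by their labels, and there is 1 group. The submitters' processing notes name Trimmomatic 0.36, STAR 2.6.1c and RSEM 1.3.1 on hg19/GRCh37.p13, whereas the study's methods name featureCounts and Ensembl 87. The deposited tables hold RSEM columns: expected counts per gene (estimated, not normalized), TPM and FPKM (scaled by the authors' program for length and depth), posterior means and 95% credibility bounds. A table of both replicates pooled was used for no result. Poly(A)+ RNA is described in the protocol, although the molecule field of the labels reads genomic DNA.

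Symbols, coordinates, transcripts and GC content came from GENCODE v44 lifted to GRCh37, the same build but another release, which matched 96.1% of the identifiers. Expected counts were rounded. The exact two-sided binomial test was conditional on each gene's sum (at least 10), with TMM factors (edgeR 4.0.16, R 4.3.3) and a pseudocount of 0.5 in ratios. Trends were medians of 50 classes, centred on the median of the genes used for them. DESeq2 1.42.0 size factors, edgeR exact tests, other filters and lengths were alternatives. The binomial test was also run on simulated counts with counting noise only and no GC trend, unlike these libraries, and no result here rests on that run. The p-values of the binomial test cover counting error only, and a permutation test of 1 library against 1 is not possible.

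Named genes were the 6 members, their pseudogenes and SRPK3, genes overlapping or within 1 kb, the coding gene nearest in level to each, and the 2 highest genes of each pathway role plus any called with an absolute log2 ratio of at least 1 (none was). TNPO3, HSP90AA1, SRSF10 and SRSF11 fall outside this rule and were named after their values were seen. The members and lists were chosen with earlier results of these data known. A listed marker gene is not reported here.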

Additional observations from a re-analysis of the deposited data

How the results depend on the processing

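All 6 genes stayed detected at minimum levels of 0.1 and 5 TPM, and 5 at 10 TPM. The order of replicate 2 alone was that of the mean, and in replicate 1 CLK3 came before SRPK1. The test between libraries cannot be run without a replicate. No paired analysis was possible because there is 1 group. Leaving copies of mitochondrial genes out of the total rescaled every gene and raised the mean TPM of all 6 members in near proportion. The means became 30.1 for CLK1, 114 for CLK2, 134 for CLK3, 15.4 for CLK4, 147 for SRPK1 and 71.4 for SRPK2. Posterior mean TPM gave 89.2 for CLK2. The canonical transcript length was chosen after the data had been seen and set for these 6 genes only, without rescaling the libraries. It gave 33.2 for CLK1, 78.5 for CLK2, 59.5 for CLK3, 61.3 for SRPK1 and 26.1 for SRPK2. The CLK over SRPK ratio became 2.09, and the order kept 1 of 6 ranks. The CPM scale gave a ratio of 1.00. With the GC trend removed, 0 members were called and log2 ratios became -0.099 for CLK1, 0.047 for CLK2 and -0.0026 for SRPK1. The edgeR exact test called 1 member and 4 pathway genes at an assumed biological coefficient of variation of 0.1, against 7.69% of all genes, and 0 and 0 with the common dispersion, against 0.801% (2 pathway genes at an unadjusted p under 0.05). The common dispersion came from the same 2 libraries that were compared, so few genes could pass. Also requiring an absolute log2 ratio of at least 1 left 0 and 0. The cause of these changes was not tested. With 2 libraries, replicate spread of a gene rests on a single difference, and depth limits CLK4 most, with the fewest counts of the 6.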
